A study of Mus musculus with 10 samples.

Results

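The 38 genes described here are imprinted genes, which are expressed mainly or only from the copy inherited from 1 parent. They were chosen by symbol and are 38 of the 53801 genes of the deposited count table. They lie in 17 loci on 9 chromosomes, and 15 of them are on chromosome 7. In textbook terms 20 are expressed from the paternal copy, 11 from the maternal copy and 7 in a way that depends on tissue or isoform. At an imprinted locus, DNA methylation laid down in 1 parental germ line marks a control region, and that mark is kept through the divisions of the embryo. It often acts through a long non-coding RNA or an insulator, so neighbouring genes can be expressed from opposite parental copies. Many such genes act on fetal growth, and in the developing brain they include regulators of progenitor division, ubiquitin ligases and splicing factors. The libraries were not separated by parental copy, so all values are the sum over both copies.

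NG2+ cells were compared with GFAP+ cells, with 5 libraries of each. All 10 libraries came from wild-type mice electroporated in utero with the StarTrack plasmids, which integrate fluorescent reporters into progenitors so that their progeny can be followed. Targeting was at embryonic day 12, and the dorsal brain was dissociated and sorted by flow cytometry at embryonic day 14, and the labels put every library in batch 1. The labels name the cells neural stem cells. Nothing in them says whether the 5 libraries of a population came from separate embryos, so p-values measure the spread between these libraries, which may in part be technical. RNA from the sorted cells was amplified with SMARTer chemistry, selected for poly(A) and sequenced in pairs.

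The NG2 libraries held between 14256176 and 17569730 counted reads, and the GFAP libraries between 12945436 and 16189859. NG2 replicate 5 stood apart, with 18903 genes detected against 22988 to 24444 in the other 9 libraries, and with correlations of log2 expression to them of 0.916 to 0.925. Cspg4, which encodes NG2, averaged 6.75 ± 1.47 CPM (counts per 1000000 reads of the library) in NG2 libraries and 1.07 ± 0.356 in GFAP libraries (SD, n = 5 each; edgeR adjusted p = 0.00256). Gfap, the gene of the other sort, had 6 reads in all NG2 libraries and 10 in all GFAP libraries, so the GFAP label was not borne out by its own transcript. Markers of neurons and radial glia were present in both populations. The 24 radial glia markers summed to 2490 to 3791 CPM in NG2 libraries and 3531 to 4874 in GFAP libraries, and 22 of them were lower in NG2. The 21 neuron markers summed to 8166 to 11530 CPM in NG2 libraries and 6289 to 8348 in GFAP libraries, and 20 of them were higher in NG2. By edgeR 0 of either list were called, and DESeq2 called 4 radial glia markers lower and 5 neuron markers higher. No marker in either list was at 0, and their part in the differences below was not tested except as a correlation across libraries.

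Of the 38 imprinted genes, 28 passed the expression filter that left 16187 genes in all. Per length, the set was dominated by Nnat, which encodes neuronatin, a small membrane protein of the endoplasmic reticulum in developing neurons. Its mean deposited FPKM (fragments scaled to transcript length and library total) was 1720, the fifth highest of all genes in the table, and it made up 75.8% of the summed mean FPKM of the 38 genes. Next came Nap1l4, a nucleosome assembly protein, at 146.5, and Snrpn, which encodes the spliceosomal protein SmN of neurons, at 121.8. Ndn, the MAGE-family protein necdin, followed at 65.4, Blcap, whose intron holds Nnat, at 44.7, and Mest, a member of the hydrolase fold family, at 35.1. In all, 11 of the genes had a mean FPKM of 10 or more, 13 lay between 1 and 10 and 14 were below 1. Mkrn3, a ring finger protein of the Ndn locus, had a coefficient of variation of CPM over the 10 libraries of 4.55%, the lowest of the set, and Nap1l4 had 6.74%, whereas Magel2 had 47.8% and Asb4 66.4%.

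**Figure D1:**
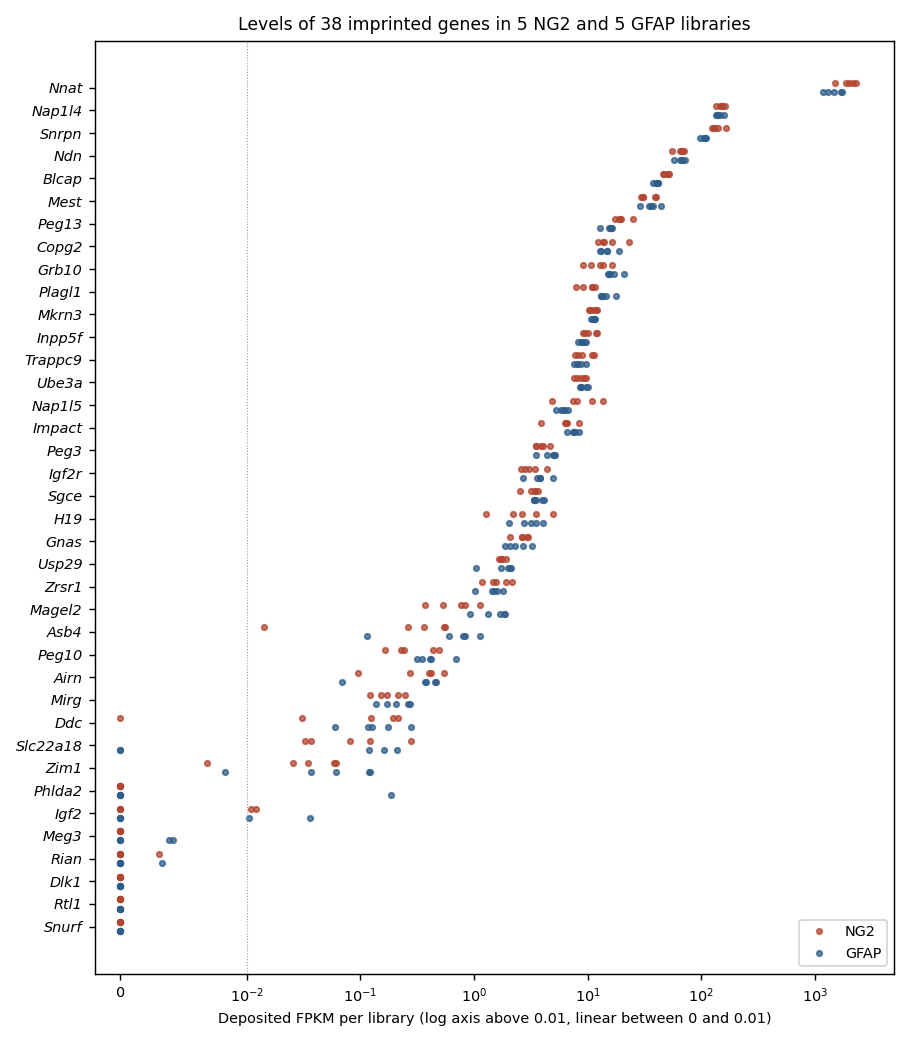
Deposited FPKM of the 38 imprinted genes in each library, ordered by mean level, on an axis that is logarithmic above 0.01 and linear below it. Each point is 1 library, NG2 in red and GFAP in blue, and Nnat at the top lies above every other gene in every library while 3 genes at the bottom are at 0 in every library.

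No imprinted gene passed the threshold between the populations. With edgeR's quasi-likelihood test and adjustment over all 16187 genes, 0 of the 28 had an adjusted p under 0.05, where 24 genes in all were called, or 0.148%. At an unadjusted p under 0.05 there were 9 of 28, or 32.1%, beside 12.8% of all genes tested. The 6 higher in NG2 (all genes 6.45%) were Nnat, Blcap, Snrpn, Peg13, Nap1l5 and Inpp5f, and the 3 lower (all genes 6.33%) were Plagl1, Grb10 and Magel2. The NG2 and GFAP libraries did not overlap for 4 of 28, beside 3.28% of all genes, namely Blcap, Snrpn and Peg13 on the higher side (all genes 1.52%) and Plagl1 on the lower (all genes 1.76%). DESeq2 called Blcap and Snrpn higher and Plagl1 and Magel2 lower, which is 4 of 27 members beside 2.29% of its 14278 genes. The authors' deposited table had the same 4 under its adjusted p of 0.05, among 35 members with a value, beside 1.16% of 28533 genes. By voom with sample weights 8 members were called, those 4 with Peg13 higher and Grb10, Igf2r and Peg3 lower, in a fit that called 1441 genes, or 8.90%. Without NG2 replicate 5, edgeR called Plagl1 and Magel2 (adjusted p = 0.0435 and 0.0453) among 117 genes, or 0.710%. Its log2 fold changes were then -0.58 for Plagl1, -1.29 for Magel2, -0.55 for Grb10, 0.40 for Nnat, 0.30 for Blcap, 0.42 for Snrpn and 0.39 for Peg13. Without both NG2 replicate 5 and GFAP replicate 2, a setting chosen after seeing the data, it called Plagl1, Magel2, Peg3 and Snrpn among 263 genes, or 1.61%. In these bulk libraries, fewer cells of a type and less RNA per cell cannot be told apart.

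The median of the set lay near that of all genes. The median log2 fold change, NG2 over GFAP, of the 28 genes was -0.03, beside -0.01 over all genes tested. By sign, 11 of 28 were higher and 17 lower, beside 48.5% higher and 51.5% lower among all genes tested. Of the 16 tested genes expressed from the paternal copy, 5 were higher and 11 lower with a median of -0.03. Of the 6 expressed from the maternal copy, 1 was higher and 5 lower with a median of -0.16. Of the 6 with tissue- or isoform-dependent imprinting, 5 were higher and 1 lower with a median of 0.13.

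**Figure D2:**
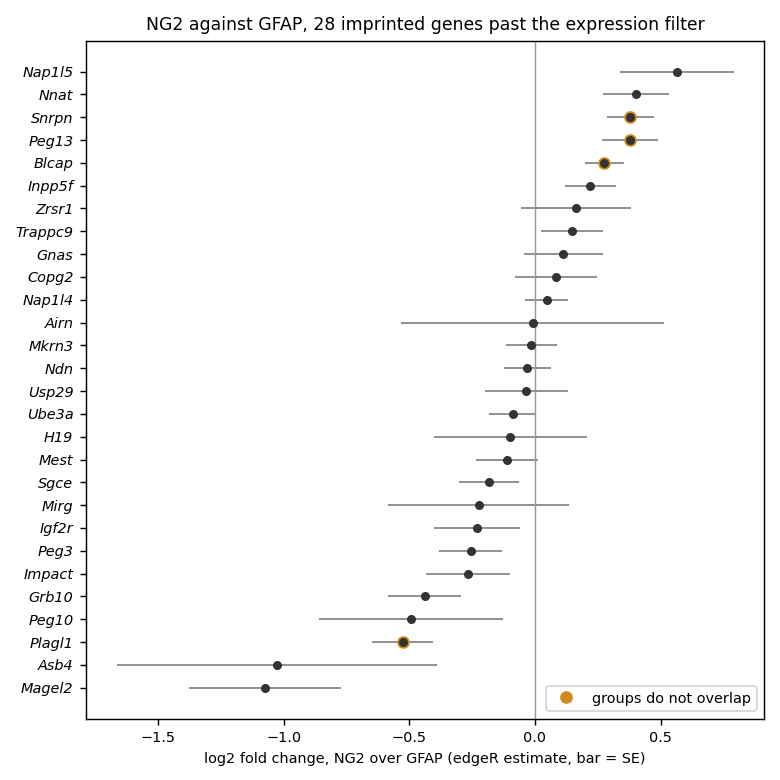
Log2 fold change of the 28 tested imprinted genes, NG2 over GFAP, by edgeR with its standard error as a bar. The estimates run from -1.08 for Magel2 to 0.57 for Nap1l5, and the 4 genes ringed in orange, Snrpn, Peg13, Blcap and Plagl1, are those whose NG2 and GFAP libraries did not overlap.

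The promoters of 5 genes, Nnat, Blcap and Snrpn with higher means in NG2 and Plagl1 and Grb10 with lower, are shown because these genes are described library by library and, for Plagl1 and Grb10, against marker levels. They were chosen after their values were seen, and other genes described library by library, such as Magel2, Ndn, Mest and Peg3, are not shown. Each window runs from 250 bases before to 50 after the start of a RefSeq transcript (GRCm38.p6), written 5′ to 3′ on the strand of the gene. Capitals mark TGCCGC or its reverse complement GCGGCA, the hexamer bound, when methylated, by the imprint-keeping zinc finger protein ZFP57. The Nnat window is chr2:157559828-157560127 on the plus strand and that of Blcap is chr2:157566312-157566611 on the minus strand. The Snrpn window, shared with Snurf, is chr7:60005150-60005449 on the minus strand. That of Plagl1 is chr10:13090582-13090881 on the plus strand and that of Grb10 is chr11:12037371-12037670 on the minus strand.
Nnat: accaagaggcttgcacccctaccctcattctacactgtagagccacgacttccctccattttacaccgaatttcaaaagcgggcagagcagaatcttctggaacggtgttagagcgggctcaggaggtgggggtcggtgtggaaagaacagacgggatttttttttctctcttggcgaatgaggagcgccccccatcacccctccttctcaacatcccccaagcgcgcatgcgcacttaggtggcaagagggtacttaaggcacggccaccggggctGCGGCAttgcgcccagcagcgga
Blcap: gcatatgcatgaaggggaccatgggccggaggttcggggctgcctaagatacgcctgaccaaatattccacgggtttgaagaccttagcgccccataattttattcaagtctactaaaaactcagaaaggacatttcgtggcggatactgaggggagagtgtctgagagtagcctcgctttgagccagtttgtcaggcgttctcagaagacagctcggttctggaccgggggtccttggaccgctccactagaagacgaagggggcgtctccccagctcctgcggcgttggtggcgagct
Snrpn: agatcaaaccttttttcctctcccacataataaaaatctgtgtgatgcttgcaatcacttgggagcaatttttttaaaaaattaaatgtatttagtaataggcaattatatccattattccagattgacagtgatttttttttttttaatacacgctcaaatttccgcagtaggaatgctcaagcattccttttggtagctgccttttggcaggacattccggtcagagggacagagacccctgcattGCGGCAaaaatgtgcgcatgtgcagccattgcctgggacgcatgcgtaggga
Plagl1: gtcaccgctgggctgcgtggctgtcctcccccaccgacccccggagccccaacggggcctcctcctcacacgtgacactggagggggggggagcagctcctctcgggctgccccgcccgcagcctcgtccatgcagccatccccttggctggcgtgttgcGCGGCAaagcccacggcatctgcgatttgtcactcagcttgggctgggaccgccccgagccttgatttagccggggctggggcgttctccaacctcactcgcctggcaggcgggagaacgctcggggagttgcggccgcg
Grb10: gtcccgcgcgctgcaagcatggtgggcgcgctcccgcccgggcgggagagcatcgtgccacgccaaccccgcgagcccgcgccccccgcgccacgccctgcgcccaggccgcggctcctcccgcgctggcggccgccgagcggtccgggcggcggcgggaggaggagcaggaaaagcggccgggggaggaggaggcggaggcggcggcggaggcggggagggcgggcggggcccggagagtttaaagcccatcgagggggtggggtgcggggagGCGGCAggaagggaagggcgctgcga

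Of the windows printed, all but that of Blcap held the hexamer on 1 strand. Snrpn has 4 windows and Grb10 has 2, and for each the window printed is the only one with the hexamer. What the printed windows held therefore depends on which genes and windows were chosen. Among genes not printed, the windows of Magel2, Ndn and Peg3 held none and that of Nap1l5 held 2. Mest and Igf2 each had at least 1 window with it. Over the set, 30 of the 38 genes matched a window by symbol, and 11 of the 30, or 36.7%, held it on either strand in at least 1 window. The share was 13.1% of all 27025 genes with a window and 22.5% of the 10716 tested genes with one. The 11 include Igf2, Meg3, Zim1 and Snurf, which failed the filter, so the share of tested genes is not a like comparison. By window it was 26.7% of 45 member windows and 11.6% of all 32851. Shared or overlapping windows were not merged in any of these shares. The window that Snrpn and Snurf share counts once for each gene, and 2 Mest windows with the hexamer overlap almost fully. The member windows were also richer in CpG, with a median of 13 CpG dinucleotides in 300 bases beside 7 over all windows. The Grb10 window shown had 45, that of Plagl1 26, those of Nnat and Blcap 17 each and that of Snrpn 7. A match says that these letters are present and not that the protein was bound. Peg13 had no entry.

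At the Nnat and Blcap locus both genes had a higher mean in NG2, and neither passed the threshold by edgeR. Nnat (chr2:157560078-157562522, plus strand) stood at 2753, 3972, 4205, 3490 and 3663 CPM in NG2 replicates 1 to 5, against 3180, 2730, 2390, 3193 and 2184 CPM in GFAP replicates 1 to 5. NG2 replicate 1 lay inside the GFAP range and the other 4 NG2 libraries lay above all GFAP libraries. The log2 fold change was 0.40 ± 0.13 (SE) with an edgeR adjusted p of 0.248. Of its exon bases 4.8% lie opposite an annotated microRNA gene that had 0 reads. Blcap (chr2:157556362-157571274, minus strand), a small conserved membrane protein, had 141.7, 155.8, 157.2, 155.4 and 141.7 CPM in NG2 libraries, against 127.9, 123.6, 126.1, 115.4 and 127.4 CPM in GFAP libraries. Its groups did not overlap, and the log2 fold change was 0.28 ± 0.08 (edgeR adjusted p = 0.186; DESeq2 adjusted p = 0.0251, within a range of 0.00905 to 0.415 over all settings). The log2 ratio of Blcap to Nnat within a library averaged -4.58 ± 0.19 in NG2 and -4.45 ± 0.281 in GFAP libraries (SD, n = 5 each), and an exact two-sided permutation test over all assignments of the libraries gave p = 0.413, or 0.532 after adjustment over 7 locus pairs.

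At the Snrpn and Ndn locus of central chromosome 7, the locus of Prader-Willi and Angelman syndromes in humans, the genes differed in direction and size. Snrpn (chr7:59982495-60140219, minus strand) had 277.3, 306.0, 360.9, 288.1 and 268.8 CPM in NG2 libraries, against 239.2, 239.3, 229.5, 231.7 and 213.9 CPM in GFAP libraries. All 5 NG2 values were above all 5 GFAP values. Its log2 fold change was 0.38 ± 0.09 (edgeR adjusted p = 0.134; DESeq2 adjusted p = 0.0130, within a range of 0.00818 to 0.301 over all settings). Of its exon bases, 27.3% are shared on the same strand with other annotated genes, so its count is uncertain. Ndn (chr7:62346569-62350262, plus strand), which holds back division in differentiating neurons, had 202.9, 242.7, 251.1, 249.4 and 261.9 CPM in NG2 libraries, against 269.7, 254.0, 251.6, 241.2 and 217.4 CPM in GFAP libraries. These overlapped throughout, with a log2 fold change of -0.03 ± 0.09 (edgeR adjusted p = 0.927) whose sign turned without NG2 replicate 1 and without GFAP replicate 1.

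Magel2 (chr7:62377010-62381640, plus strand), a MAGE-family partner of ubiquitin ligases in endosomal sorting, had, with Asb4, the largest log2 fold changes of the 28 in size by edgeR (-1.08 and -1.03), and which of these was the larger turned with the library left out. It had 2.46, 3.58, 1.74, 3.89 and 5.24 CPM in NG2 libraries, against 8.84, 7.85, 4.33, 8.54 and 6.20 CPM in GFAP libraries. Only NG2 replicate 5 reached above the lowest GFAP library. The log2 fold change was -1.08 ± 0.30, or 2.11-fold lower in NG2, from 268 reads in the NG2 libraries and 540 in the GFAP libraries (edgeR adjusted p = 0.181; DESeq2 adjusted p = 0.0240, within a range of 0.0213 to 0.408 over all settings). Mkrn3 averaged 28.7 ± 1.82 CPM over NG2 and 29.0 ± 0.705 CPM over GFAP libraries. Ube3a, a ubiquitin ligase that neurons express from the maternal copy, averaged 179.7 ± 17.7 CPM over NG2 and 191.0 ± 13.9 CPM over GFAP libraries, with a log2 fold change of -0.09 ± 0.09 (edgeR adjusted p = 0.732). Of its exon bases 27.3% lie opposite exons of other genes, among them the antisense RNA Snhg14. Snurf, read from the same transcript as Snrpn, had 0 reads, and all of its exon bases are shared with annotated Snrpn exons.

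Ratios within a library do not depend on how libraries are scaled, and 7 of 11 chosen locus pairs had both genes past the filter. The log2 ratio of Ube3a to Snrpn was -0.47, -0.87, -0.91, -0.68 and -0.77 in NG2 libraries, against -0.39, -0.42, -0.34, -0.19 and -0.03 in GFAP libraries. Every NG2 value was below every GFAP value, and the means differed by -0.46 (exact permutation p = 0.00794, the smallest that 5 libraries against 5 allow, and 0.0556 after adjustment over 7 pairs). The log2 ratio of Magel2 to Ndn averaged -6.24 ± 0.568 in NG2 and -5.15 ± 0.41 in GFAP libraries, a difference of -1.09 (exact permutation p = 0.0159, adjusted 0.0556). That of Peg13 to Trappc9 averaged 0.35 ± 0.183 in NG2 and 0.11 ± 0.123 in GFAP libraries, a difference of 0.24 (exact permutation p = 0.0476, adjusted 0.111). None passed 0.05 after adjustment. Without NG2 replicate 5 these differences were -0.46 for Ube3a to Snrpn, -1.24 for Magel2 to Ndn and 0.31 for Peg13 to Trappc9 (exact permutation p = 0.00794, 0.0159 and 0.0159, unadjusted). For the pairs of Airn with Igf2r, Copg2 with Mest, Blcap with Nnat and Sgce with Peg10, the adjusted p was 0.532.

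**Figure D3:**
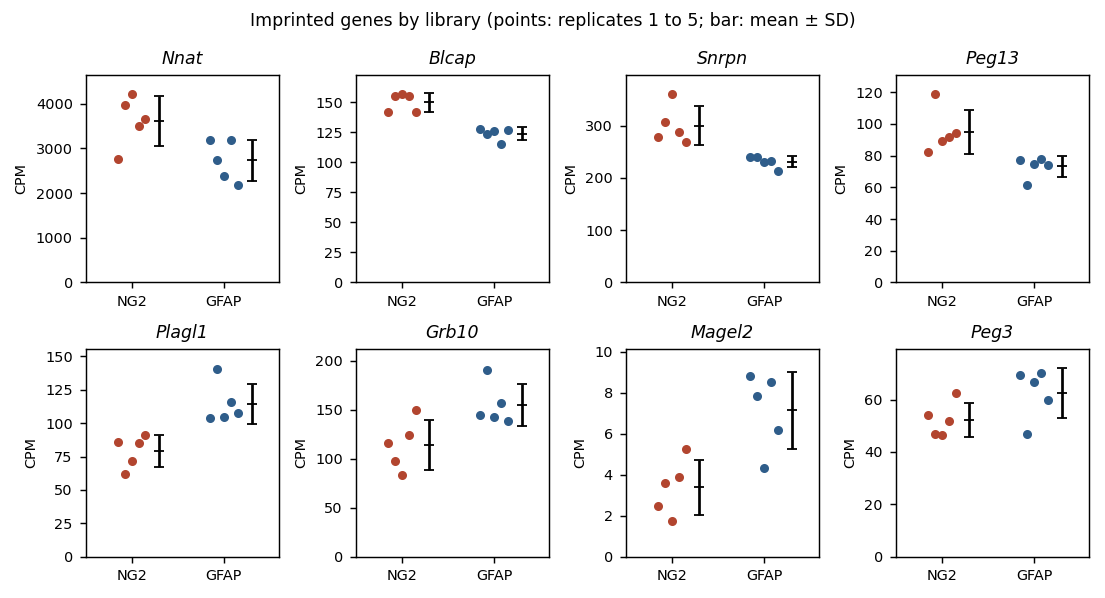
CPM per library of the 4 imprinted genes with the smallest p in each direction, with NG2 left of GFAP in each panel and a bar for mean ± SD over 5 libraries. The axes start at 0, and the panels of Blcap, Snrpn, Peg13 and Plagl1 show NG2 and GFAP points with no overlap.

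Peg13 (chr15:72805600-72810324, minus strand), a non-coding RNA inside an intron of Trappc9, had 82.1, 118.6, 89.0, 91.6 and 94.5 CPM in NG2 libraries, against 77.3, 61.2, 74.8, 78.1 and 74.4 CPM in GFAP libraries. The groups did not overlap, and NG2 replicate 2 was the highest and GFAP replicate 2 the lowest. Its log2 fold change was 0.38 ± 0.11 (edgeR adjusted p = 0.195; DESeq2 adjusted p = 0.0529, within a range of 0.0279 to 0.358 over all settings). Its host Trappc9, a subunit of a vesicle tethering complex, averaged 75.1 ± 13.3 CPM over NG2 and 67.9 ± 6.89 CPM over GFAP libraries, a log2 fold change of 0.15 ± 0.12 (edgeR adjusted p = 0.661).

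Plagl1 and Grb10, genes that restrain growth, had lower means in NG2 and did not pass the threshold by edgeR. Plagl1 (chr10:13060504-13131694, plus strand), also called Zac1, encodes a zinc finger transcription factor that slows cell division. It had 86.1, 61.8, 72.1, 85.5 and 91.1 CPM in NG2 libraries, against 104.0, 140.2, 104.5, 115.5 and 107.5 CPM in GFAP libraries. The highest NG2 library was below the lowest GFAP library. The log2 fold change was -0.53 ± 0.12, or 1.44-fold lower in NG2 (edgeR adjusted p = 0.122; DESeq2 adjusted p = 0.0130, within a range of 0.0113 to 0.308 over all settings), and it kept its sign in all 21 of them.

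Grb10 (chr11:11930508-12038683, minus strand) encodes an adaptor that dampens signalling by the insulin and insulin-like growth factor receptors. It had 116.1, 97.4, 83.1, 124.3 and 149.3 CPM in NG2 libraries, against 144.9, 190.9, 142.8, 156.7 and 138.3 CPM in GFAP libraries. NG2 replicate 5 lay among the GFAP libraries and the other 4 NG2 libraries below them. The log2 fold change was -0.44 ± 0.14 (edgeR adjusted p = 0.248; DESeq2 adjusted p = 0.120).

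Across the 10 libraries, the levels of Plagl1 and Grb10 followed the markers of radial glia upwards and those of neurons downwards. The log2 CPM of each of the 28 genes was set against marker scores for radial glia, neurons and meningeal fibroblasts. Of these 84 relations 4 had a Pearson permutation p under 0.05 after adjustment. Genes outside the 28 were not set against the scores, so the share of all genes that follow them as closely is not known. The radial glia score averaged -0.154 ± 0.294 in NG2 and 0.154 ± 0.202 in GFAP libraries, and the neuron score 0.151 ± 0.14 in NG2 and -0.151 ± 0.207 in GFAP libraries (log2 scale, SD, n = 5 each). The 2 scores tended to run opposite ways across the libraries, so the 4 relations are not independent of each other. Plagl1 had r = 0.91 with the radial glia score (permutation p = 0.00069, adjusted 0.0207), Spearman's rho of 0.73 (permutation p = 0.0209, adjusted 0.195), r = 0.74 without the 2 libraries farthest from the median score, and r = 0.95 for deviations from the group means. With the neuron score it had r = -0.89 (permutation p = 0.00074, adjusted 0.0207), rho = -0.93 (permutation p = 0.00033, adjusted 0.0277), r = -0.87 without the 2 farthest libraries and -0.78 within groups. Grb10 had r = 0.90 with radial glia (permutation p = 0.00192, adjusted 0.0403), rho = 0.75 (permutation p = 0.0178, adjusted 0.187), 0.77 without the 2 farthest libraries and 0.85 within groups. With neurons it had r = -0.92 (permutation p = 0.00013, adjusted 0.0109), rho = -0.87 (permutation p = 0.00227, adjusted 0.0953), -0.87 without the 2 farthest libraries and -0.85 within groups. Without NG2 replicate 5, r was 0.92 for Plagl1 and 0.89 for Grb10 with radial glia, and -0.89 for Plagl1 and -0.93 for Grb10 with neurons. For the radial glia score the 2 farthest libraries were NG2 replicates 2 and 3. GFAP replicate 2 stayed in at a score of 0.51, and the other libraries kept lay between 0.00 and 0.11. That library also had the highest Plagl1 and Grb10 levels, so both radial glia values without the 2 farthest rested largely on it. Of the 4 rank correlations, that of Plagl1 with neurons alone passed 0.05 after adjustment. No relation with the meningeal score did by either measure. Next by adjusted p of Pearson r came Peg10 with radial glia (r = 0.84, adjusted permutation p = 0.0556). Magel2 with neurons (r = -0.78) and Peg13 with radial glia (r = -0.85) had adjusted permutation p = 0.0796 each. Blcap with neurons had r = 0.73 (adjusted permutation p = 0.0933). The part of the marker levels in the group differences was not tested further.

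**Figure D4:**
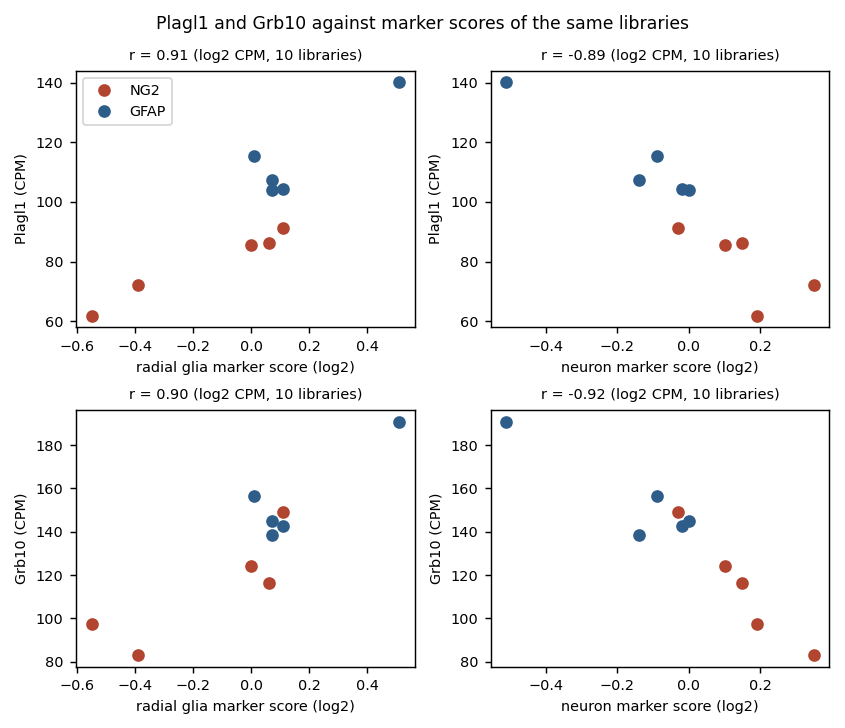
CPM of Plagl1 (top) and Grb10 (bottom) in each library against the radial glia and neuron marker scores of that library (log2 scale), NG2 in red and GFAP in blue. Both genes are high where the radial glia score is high, r = 0.91 and 0.90, and low where the neuron score is high, r = -0.89 and -0.92. The 5 NG2 points also follow these directions. Among the GFAP points replicate 2 lies apart, with a radial glia score of 0.51 and a neuron score of -0.51. The other GFAP points do not rise with the radial glia score.

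Nap1l5, another nucleosome assembly protein, averaged 16.7 ± 6.24 CPM over NG2 and 11.3 ± 1.01 CPM over GFAP libraries, a log2 fold change of 0.57 ± 0.23 (edgeR adjusted p = 0.320). NG2 replicate 5, at 9.07 CPM, was below every GFAP library. Its relative Nap1l4 (chr7:143513579-143549106, minus strand) had 421.2, 505.9, 471.6, 473.9 and 453.6 CPM in NG2 libraries, against 444.4, 499.5, 417.2, 428.3 and 463.2 CPM in GFAP libraries. These ranges overlapped, with a log2 fold change of 0.05 ± 0.09 (edgeR adjusted p = 0.864). Inpp5f, a phosphoinositide phosphatase, averaged 87.9 ± 11.4 CPM over NG2 and 75.5 ± 4.61 CPM over GFAP libraries (log2 fold change 0.22 ± 0.10, edgeR adjusted p = 0.386).

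On chromosome 6, Mest (chr6:30723547-30748465, plus strand) had 153.2, 121.3, 117.7, 158.2 and 122.2 CPM in NG2 libraries, against 144.5, 177.3, 139.0, 115.8 and 149.4 CPM in GFAP libraries. The groups overlapped, with a log2 fold change of -0.11 ± 0.12 (edgeR adjusted p = 0.750) that was 0.14 by voom. Its neighbour Copg2, a coat protein subunit of Golgi vesicles, averaged 82.1 ± 22.4 CPM over NG2 and 77.4 ± 12.8 CPM over GFAP libraries. The 3′ ends of these genes face each other and share 912 bases on opposite strands, which are 23.1% of Mest and 17.8% of Copg2 exon bases, so without a stated strand setting their reads cannot be told apart there. In the Peg10 cluster, Sgce, which encodes epsilon-sarcoglycan, averaged 34.8 ± 4.58 CPM over NG2 and 39.5 ± 3.88 CPM over GFAP libraries. Peg10, derived from a retrotransposon, averaged 2.11 ± 0.966 CPM over NG2 and 2.96 ± 0.989 CPM over GFAP libraries. Asb4, an ankyrin repeat protein of the ubiquitin pathway, averaged 1.37 ± 0.878 CPM over NG2 and 2.78 ± 1.5 CPM over GFAP libraries, with a log2 fold change of -1.03 ± 0.64 (edgeR adjusted p = 0.534).

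In the Peg3 cluster of proximal chromosome 7, Peg3 (chr7:6703892-6730431, minus strand), a large zinc finger protein, had 54.0, 47.0, 46.5, 51.7 and 62.3 CPM in NG2 libraries, against 69.2, 46.9, 66.6, 70.0 and 59.98 CPM in GFAP libraries. GFAP replicate 2 lay among the NG2 libraries. GFAP replicates 1, 3 and 4 were above all NG2 libraries, and GFAP replicate 5 was above all but NG2 replicate 5. The log2 fold change was -0.26 ± 0.13 (edgeR adjusted p = 0.408), and without both NG2 replicate 5 and GFAP replicate 2 it was -0.41 (adjusted p = 0.0447). Usp29, a ubiquitin protease gene transcribed away from Peg3, averaged 31.9 ± 1.61 CPM over NG2 and 32.7 ± 8.2 CPM over GFAP libraries. Of the remaining scattered genes, Gnas, which encodes the stimulatory G protein alpha subunit, averaged 29.9 ± 4.04 CPM over NG2 and 27.6 ± 6.26 CPM over GFAP libraries, with 22.0% of its exon bases opposite other genes. Impact, an inhibitor of the amino acid sensor Gcn2, averaged 21.8 ± 5.41 CPM over NG2 and 26.2 ± 2.37 CPM over GFAP libraries. Zrsr1, a relative of the U2 splicing factors, averaged 7.48 ± 1.77 CPM over NG2 and 6.68 ± 1.28 CPM over GFAP libraries. Its value is uncertain, since 9.2% of its exon bases lie opposite Commd1, which had 5431 reads over the 10 libraries. For Usp29 the shared part is 14.8%, mostly opposite Zim3, which had 5 reads. Usp29, Gnas, Impact and Zrsr1 did not pass the threshold by edgeR, with adjusted p from 0.535 to 0.959.

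The ligand and receptor at the centre of the imprinted growth pathway were unequally represented. Igf2, which encodes insulin-like growth factor 2 (chr7:142650766-142666816, minus strand), had 0, 0, 1, 1 and 0 reads in NG2 replicates 1 to 5, against 1, 0, 0, 3 and 0 reads in GFAP replicates 1 to 5. These 6 reads are 0.0395 per 1000000 reads, with an exact Poisson 95% interval of 0.0145 to 0.0859 that covers counting error only. Of the exon bases of Igf2, 62.8% are shared on the same strand with the annotated read-through gene Gm49394, which had 0 reads in the table. H19 (chr7:142575529-142578143, minus strand), the maternally expressed non-coding RNA of the same locus, was present at 5.46, 3.17, 6.54, 8.66 and 12.2 CPM in NG2 libraries, against 10.1, 7.85, 8.80, 6.86 and 5.11 CPM in GFAP libraries. The NG2 range enclosed the GFAP range, and the log2 fold change was -0.10 ± 0.31 (edgeR adjusted p = 0.929), with the opposite sign without NG2 replicate 2 or GFAP replicate 1. Of its exon bases 9.1% are shared, on either strand, with small RNA genes that had 0 reads. Igf2r, the receptor that clears the ligand, averaged 30.8 ± 6.74 CPM over NG2 and 36.2 ± 7.55 CPM over GFAP libraries (log2 fold change -0.23 ± 0.17, edgeR adjusted p = 0.611). Airn, the antisense RNA that silences Igf2r in cis, averaged 1.25 ± 0.616 CPM over NG2 and 1.26 ± 0.584 CPM over GFAP libraries.

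The 27 genes listed for insulin-like growth factor signalling gave the setting of these members. Of them 21 passed the filter and edgeR called 0, with 10 higher and 11 lower in NG2 and a median log2 fold change of -0.01. At an unadjusted p under 0.05 there were 2 higher and 4 lower, and DESeq2 called 1, the binding protein Igfbp3, which was chosen for mention after its values were seen (24.0 ± 3.4 CPM over NG2 and 13.9 ± 3.21 CPM over GFAP libraries, DESeq2 adjusted p = 0.00188, edgeR adjusted p = 0.119). The kinase Akt1 and the binding protein Igfbp2 were the most abundant by CPM, Igfbp2 at 402.6 ± 82.2 CPM over NG2 and 399.6 ± 19.5 CPM over GFAP libraries. The receptors Igf1r and Insr had log2 fold changes of -0.25 ± 0.15 and -0.23 ± 0.17 (edgeR adjusted p = 0.518 and 0.613). The ligand Igf1 had 42 reads in NG2 and 45 in GFAP libraries.

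Reads were nearly absent from a stretch of chromosome 12. Between the start of Dlk1 and the end of Rian (chr12:109452823-109661716, 208.9 kb) the table lists 46 genes. Of these, 8 are 300 bases or longer, and the others are shorter entries for microRNAs, small nucleolar RNAs and other small RNAs. Over 10 libraries 4 reads were counted there, in 2 of the 8 longer genes. Meg3 (chr12:109541001-109571726, plus strand), a long non-coding RNA expressed from the maternal copy, had 0 reads in NG2 and 2 in GFAP libraries. Rian, a host of small nucleolar RNAs, had 1 read in NG2 and 1 in GFAP libraries. Dlk1, a transmembrane relative of the Notch ligands, and Rtl1, a retrotransposon-derived gene, had 0 reads in all 10, which allows up to 0.0197 per 1000000 reads. For Meg3 the 0 reads of the NG2 libraries allow up to 0.0382 per 1000000 reads. Of the exon bases of Meg3 8.3% are shared with other annotated genes and of those of Dlk1 0.0%. Farther along the same non-coding array reads were present, with 105 in NG2 and 124 in GFAP libraries for B830012L14Rik. Mirg, a host of microRNAs, had 104 in NG2 and 116 in GFAP libraries. Begain, on the other side, had 778 reads in NG2 and 798 in GFAP libraries. What set the counts between Dlk1 and Rian was not tested.

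**Figure D5:**
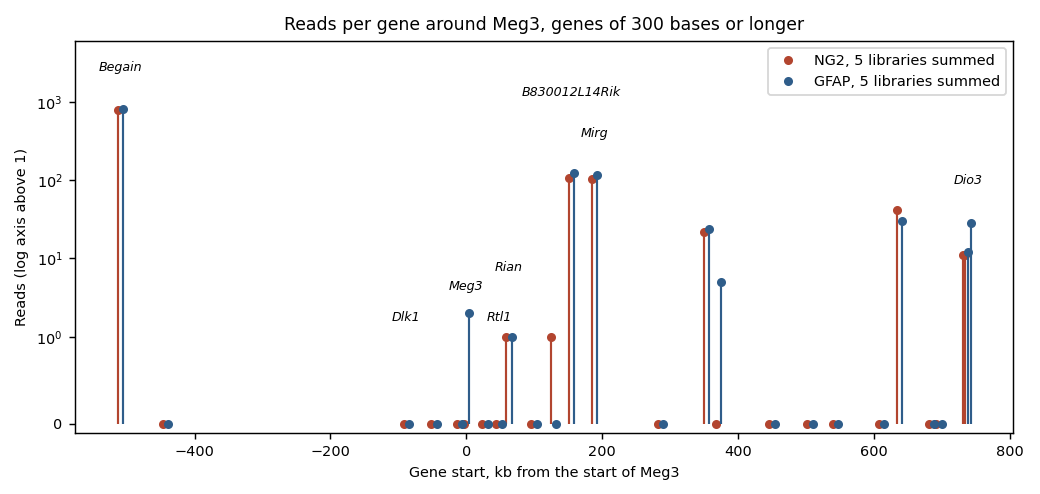
Reads summed over 5 NG2 (red) and 5 GFAP (blue) libraries for genes of 300 bases or longer around Meg3, against the distance of the gene start from that of Meg3 in kb, with the paired stems set slightly apart and the vertical axis logarithmic above 1. From Dlk1 to Rian no gene exceeds 2 reads in either population, while Begain has 778 and 798 reads and Mirg 104 and 116 reads in NG2 and GFAP libraries.

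The other genes that failed the filter were also low in both populations. Zim1, a zinc finger gene of the Peg3 cluster, had 23 reads in NG2 and 41 in GFAP libraries. Ddc, the decarboxylase of dopamine and serotonin synthesis that neighbours Grb10, had 38 in NG2 and 51 in GFAP libraries. Slc22a18, a transporter of the Kcnq1 cluster, had 14 in NG2 and 13 in GFAP libraries. Phlda2 of that cluster, which restrains placental growth, had 0 in NG2 and 3 in GFAP libraries, all in GFAP replicate 4. Mirg passed the filter at 1.33 ± 0.362 CPM over NG2 and 1.55 ± 0.432 CPM over GFAP libraries.

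Imprinted genes outside the 38 and the proteins that keep imprints were listed as context. Of 52 further imprinted genes, 31 passed the filter and edgeR called 0, with 16 higher, 15 lower and a median log2 fold change of 0.04. At an unadjusted p under 0.05 there were 0 higher and 3 lower, and DESeq2 called 0. The 6 most abundant by CPM were Cd81, H13, Tssc4, Bcl2l1, Kcnq1ot1 and Cdkn1c. Cdkn1c, a cyclin-dependent kinase inhibitor, averaged 65.8 ± 9.29 CPM over NG2 and 83.3 ± 16.1 CPM over GFAP libraries, and Kcnq1ot1, the non-coding RNA that silences it in cis, 105.0 ± 28.7 CPM over NG2 and 147.1 ± 41.8 CPM over GFAP libraries (edgeR adjusted p = 0.333 and 0.362). Of 22 genes listed for imprint maintenance 18 passed the filter, and 16 of them had a lower mean in NG2, with a median log2 fold change of -0.18. The edgeR and DESeq2 calls among them were 0, with 1 higher and 5 lower at an unadjusted p under 0.05. The most abundant were Trim28, the corepressor recruited by ZFP57, at 267.4 ± 41.6 CPM over NG2 and 279.8 ± 28.9 CPM over GFAP libraries, and the insulator protein gene Ctcf at 195.7 ± 23.5 CPM over NG2 and 203.7 ± 9.12 CPM over GFAP libraries. Dnmt3l and Zfp42 had 0 reads in every library.

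Lists for 9 other cell types were examined as well. Of the 13 intermediate progenitor markers, all tested, 10 were lower in NG2, and they summed to 3175 to 3632 CPM over NG2 and 3591 to 4060 CPM over GFAP libraries. DESeq2 called 3 of them lower, Eomes, Btg2 and Rhbdl3, and edgeR called 0. Of the 9 tested Cajal-Retzius markers 8 were lower in NG2, 5 of them at an unadjusted p under 0.05, with no call by edgeR or DESeq2. All 10 listed Cajal-Retzius markers summed to 34.3 to 60.4 CPM over NG2 and 59.0 to 98.5 CPM over GFAP libraries.

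Of the 12 tested markers of meningeal fibroblasts, a tissue in which several imprinted genes are abundant, 10 were lower in NG2, with a median log2 fold change of -0.59. The 18 listed summed to 113.8 to 218.5 CPM over NG2 and 157.3 to 191.5 CPM over GFAP libraries. Cxcl12, singled out after its values were seen, made up most of these sums and differed in direction (157.9 ± 45.3 CPM over NG2 and 131.8 ± 8.85 CPM over GFAP libraries). Without it the sums were 19.9 to 37.9 CPM over NG2 and 35.5 to 53.2 CPM over GFAP libraries. The 4 tested choroid plexus markers were all lower in NG2, and the 10 listed summed to 6.03 to 52.5 CPM over NG2 and 8.31 to 293.7 CPM over GFAP libraries. The 11 tested microglia markers were all higher in NG2, and the 14 listed summed to 31.2 to 397.0 CPM over NG2 and 47.9 to 179.1 CPM over GFAP libraries. Of the tested markers, 3 of 9 endothelial, 3 of 8 mural, 5 of 7 erythroid and 3 of 11 interneuron genes were higher in NG2. In the lists of this paragraph edgeR and DESeq2 called only Cspg4, a mural marker and the gene of the NG2 sort. The part of all these markers in the values of the imprinted genes was not tested beyond the 3 scores above.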

How the data were processed

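The deposited table held whole-number read counts for each gene and library, which the authors had not normalised, and FPKM that the authors computed per gene length and library. Per the submitters' processing notes, reads were aligned to GRCm38.p6 with HISAT2 and counted with featureCounts 1.5.0-p3. Whether counting used strand or multiply aligned reads, and with which annotation, is not given in the sources used here. Shares of exon bases that overlap other genes in GENCODE M21 are therefore given, the largest beside the gene, and counts from such bases are uncertain. The authors' own comparison, made with a tool not named in the sources used here, holds a log2 fold change and a p-value with its adjusted value, per the file headers. Every column used was matched to a library by its title.

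Counts were tested with edgeR 4.0.16 in R 4.3.3 (TMM, its default filter by group, quasi-likelihood test, Benjamini-Hochberg adjustment over all 16187 genes, threshold 0.05), after the procedure was tested on simulated counts. CPM are deposited counts scaled with TMM factors. Fold changes are NG2 over GFAP, with the edgeR estimate and its standard error. Differences of log2 ratios within a library (0.5 added to each count) were tested over all assignments of the libraries (exact, two-sided). Marker scores are means of log2 CPM (prior count 2) about the gene mean, and correlations used 100000 permutations. A count of 0 was read as allowing up to 3 reads, and intervals are exact Poisson at 95%. Without molecular identifiers, these cover counting error only. Of the 11 locus pairs listed, the 4 with a gene below the filter were not tested. Alternatives were other scalings and filters, DESeq2 1.42.0, voom and limma-trend on FPKM (limma 3.58.1), a block on replicate number and omission of each library.

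The imprinted genes and all gene lists were chosen with earlier results of these data known. Values in every library are given for Igf2 and H19, for the 6 genes with the highest mean FPKM and for the 4 with the smallest p in each direction. From the lists for growth factor signalling and imprint maintenance the 2 most abundant genes are named, with Igf1, Igf1r and Insr, and 6 from other imprinted genes. Eomes, Btg2, Rhbdl3, Dnmt3l and Zfp42 were chosen after their values were seen, as were further genes where the text says so. Promoters are RefSeq windows (GRCm38.p6) matched by symbol.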

Additional observations from a re-analysis of the deposited data

Results flagged for a closer look

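Of 56 sets of 5 libraries examined, 28 imprinted genes in each population, 2 held a library far from the other 4. This is no more than the about 1 in 20 that chance gives. Both were GFAP replicate 2. Airn, the antisense RNA of the Igf2r locus, stood at 0.251 CPM there and at 1.36 to 1.68 CPM in the other GFAP libraries. Peg13, the non-coding RNA inside Trappc9, stood at 61.2 CPM there and at 74.4 to 78.1 CPM in the others. GFAP replicate 2 also had the highest radial glia score (0.51) and the lowest neuron score (-0.51) of the 10 libraries. Their part in the Airn and Peg13 values was not tested.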

How the results depend on the processing

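The count of genes called moved with the fit. It was 24 (12 higher and 12 lower) in the edgeR fit, 95 (58 and 37) without an expression filter, 327 (199 and 128) by DESeq2, 1441 (584 and 857) by voom with sample weights, 12 (9 and 3) by limma-trend on FPKM with either pseudocount (1 or 0.1), and 263 (109 and 154) without both NG2 replicate 5 and GFAP replicate 2, a setting chosen after seeing the data. Leaving out each library gave 3 to 117, with 3 without NG2 replicate 2 or GFAP replicate 1, 2 or 3, 5 without NG2 replicate 3 or GFAP replicate 4, 6 without GFAP replicate 5, 12 without NG2 replicate 4 and 117 without NG2 replicate 5. With library size alone as scaling, 8 were higher and 12 lower. Of the imprinted genes, 0 were called in the edgeR fit, 1 (Plagl1) without a filter, where 0.305% of all genes were called, 4 by DESeq2, 8 by voom, 4 without both libraries and 0 to 2 over the single omissions. Their median log2 fold change stayed between -0.08 and 0.01 in every setting. The cause of these shifts was not tested.

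Same-numbered NG2 and GFAP libraries had correlations of their deviations of 0.065, 0.078, 0.013, 0.037 and -0.017. These give no sign that the numbers pair the libraries, but 5 pairs cannot exclude it. With a replicate block edgeR called 1 gene and 0 imprinted genes, and the ratios of Ube3a to Snrpn and Magel2 to Ndn kept their differences (exact sign-flip permutation p = 0.0625 each, the smallest that 5 pairs allow). Of 28 genes 19, and of 7 ratios 5, kept their direction in all settings. The log2 fold change turned for Airn (0.00 with DESeq2 size factors, by DESeq2 and with the replicate block, 0.01 by FPKM with 0.1), Usp29 (0.00 with the replicate block and by FPKM with 1, 0.02 with 0.1), and by voom for Peg10 (0.14), Mest (0.14), Copg2 (-0.10) and Zrsr1 (-0.06). Without both libraries it turned for Mest (0.01), Mkrn3 (0.02) and Zrsr1 (-0.06). Over single omissions the range crossed 0 for Airn (-0.27 to 0.23), Usp29 (-0.18 to 0.03), H19 (-0.37 to 0.10), Ndn (-0.07 to 0.03), Mkrn3 (-0.04 to 0.01), Copg2 (-0.09 to 0.19), and the log2 ratios of Airn to Igf2r (-0.12 to 0.57) and Copg2 to Mest (-0.01 to 0.31). Depth limits Airn, Mirg, Asb4 and Peg10, which rest on 192 to 387 reads over 10 libraries.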

Other observations

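Peg12, an imprinted gene of the Snrpn and Ndn locus that lies outside the 38, was chosen for mention after its values were seen. It averaged 4.84 ± 1.69 CPM over NG2 and 8.09 ± 1.73 CPM over GFAP libraries (SD, n = 5 each), a log2 fold change of -0.74 ± 0.26 (edgeR adjusted p = 0.277, DESeq2 adjusted p = 0.120). Nespas, the antisense RNA of the Gnas locus, averaged 5.47 ± 1.33 CPM over NG2 and 7.56 ± 1.57 CPM over GFAP libraries (edgeR adjusted p = 0.398). The RNA-binding proteins named for the Igf2 transcript, Igf2bp1, Igf2bp2 and Igf2bp3, had log2 fold changes of -0.26 ± 0.15, -0.23 ± 0.10 and -0.28 ± 0.08 (edgeR adjusted p = 0.499, 0.385 and 0.203), although Igf2 itself had 6 reads. These 5 genes were picked from the lists by their values.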
